A study of Mus musculus with 6 samples.

Results

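H3K27ac was measured at 9 genes of the canonical Wnt pathway in O4AID embryonic stem cells (ESCs): Ctnnb1, Tcf7l1, Tcf7l2, Tcf7, Lef1, Axin2, Sp5, Apc and Gsk3b. H3K27ac is acetylation of histone H3 at lysine 27, a mark found at active enhancers and promoters. The genes were chosen by name for their place in the pathway, with earlier results of these data known. The peaks of each gene are all H3K27ac peaks that overlap the gene body (GENCODE vM21 on GRCm38) or the 10 kb on either side. This gave 40 of the 31131 deposited peaks, in 8 of the 9 genes. Tcf7l1 held 13 peaks, Gsk3b 11, Tcf7l2 4, Ctnnb1, Sp5 and Apc 3 each, Axin2 2 and Tcf7 1, and Lef1 held 0.

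All cells came from 1 line of strain 129SV that lacks endogenous Oct4 (Oct4-/-) and carries a TetOFF Oct4 transgene, an Oct4AID transgene and the auxin receptor Tir1. The last of these transgenes are both driven by CAG, a promoter active in most cell types. Doxycycline at 1 μg/ml kept the TetOFF Oct4 silent, so the OCT4 protein of these cells was the form tagged with an auxin-inducible degron. The 3 uninduced libraries were compared with 3 libraries from cells given the auxin IAA (indole-3-acetic acid) at 500 μM for 1.5 h, which leads to degradation of the tagged protein, the replicates being independent immunoprecipitations. Whether they came from separate cultures is not stated, so the p-values cover the spread between these libraries. Both groups were grown in N2B27 with LIF, 1 μM PD03 (a MEK inhibitor) and 3 μM Chiron. Chiron is CHIR99021, an inhibitor of the kinases GSK3α and GSK3β, so the Wnt pathway was held active downstream of its receptors in every library of this comparison. The labels do not say whether the line is 1 clone.

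In the canonical pathway, a cytoplasmic complex built on APC and AXIN holds β-catenin for phosphorylation by GSK3, after which β-catenin is degraded. Wnt ligands, or inhibition of GSK3, stop this, and β-catenin then enters the nucleus and acts through the DNA-binding factors TCF7L1, TCF7L2, TCF7 and LEF1. TCF7L1 is the most prominent of these in mouse ESCs, where it acts as a repressor of pluripotency genes that β-catenin relieves. Axin2 and Sp5 are targets of the pathway whose products restrain it in turn. The comparison gives the change of H3K27ac at this machinery 1.5 h after IAA was added. It holds no IAA-treated cells without the OCT4 degron, so loss of OCT4 and other effects of IAA cannot be told apart here. The paper's control for H3K27ac, cells with degron-tagged eGFP, showed no change by ChIP-qPCR at the Klf4 and Prdm14 enhancers, which are not among these genes.

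The regulatory sequence of the members is shown first at the places the results turn on. A peak was called marked where the authors' table puts an OCT4 binding site, taken from earlier ChIP-seq of a different ESC line, no more than 1 kb away. Of the 40 member peaks, 2 (5%) were marked, against 17.6% of the 26457 peaks tested, and both belong to Tcf7l1. The middle 300 bases of these peaks are printed below on the plus strand of GRCm38. Peak 12 overlaps coding sequence at the 5′ end of Tcf7l1 and an annotated transcript start, and the printed stretch overlaps a coding exon. Neither stretch holds a motif searched for, so neither has capitals. Peak 11 lies in an intron, with its centre 30234 bp from the gene start.
Tcf7l1 peak 12, chr6:72788140-72788439: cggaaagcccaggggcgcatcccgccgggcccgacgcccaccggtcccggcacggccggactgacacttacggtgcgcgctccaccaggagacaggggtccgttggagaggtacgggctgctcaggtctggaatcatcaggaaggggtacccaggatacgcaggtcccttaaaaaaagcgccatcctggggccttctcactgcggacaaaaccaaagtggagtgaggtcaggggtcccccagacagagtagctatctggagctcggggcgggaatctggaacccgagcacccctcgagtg
Tcf7l1 peak 11, chr6:72758870-72759169: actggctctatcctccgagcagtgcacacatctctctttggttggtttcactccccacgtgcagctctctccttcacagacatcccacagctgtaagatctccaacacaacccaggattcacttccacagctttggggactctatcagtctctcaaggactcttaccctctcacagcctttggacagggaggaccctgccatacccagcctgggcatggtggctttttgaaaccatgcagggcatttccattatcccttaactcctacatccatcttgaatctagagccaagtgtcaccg

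Both strands were searched for the octamer ATTTGCAT bound by OCT4, for a SOX core (ATTGTN) and for the TCF/LEF cores CTTTGAT and CTTTGAA. None of these letters occurs in the 2 stretches above, or elsewhere in the 2 peaks. A missing match says only that these letters are not in the window. The octamer was found in 1 of the 40 member peaks, peak 4 of Gsk3b. In the middle 300 bases, 1 of the 40 (2.5%) held the octamer, 1 (2.5%) CTTTGAT, 1 (2.5%) CTTTGAA and 9 (22.5%) the SOX core, beside 1.13%, 3.23%, 4.82% and 25.8% of all tested peaks. Over whole peaks, which differ in length, a TCF/LEF core was found in peaks of Ctnnb1, Tcf7l1, Axin2 and Gsk3b. Matches per kb were 0.120 for each core in member peaks, beside 0.122 for CTTTGAT and 0.187 for CTTTGAA in all tested peaks. A core was also found in the RefSeq promoter of Sp5 (250 bases before the start, GRCm38.p6, plus strand). For 8 of the 9 members 14 such promoters were matched. Of these, 1 held CTTTGAT, 0 CTTTGAA and 3 the SOX core, beside 3.21%, 4.46% and 27.6% of all 32851 such promoters. The sites of the feedback genes and the octamer of Gsk3b are shown with the matching letters in capitals, 30 bases for each site in a peak and the whole window for Sp5, where the second match is the SOX core.
Sp5 promoter, chr2:70474673-70474922: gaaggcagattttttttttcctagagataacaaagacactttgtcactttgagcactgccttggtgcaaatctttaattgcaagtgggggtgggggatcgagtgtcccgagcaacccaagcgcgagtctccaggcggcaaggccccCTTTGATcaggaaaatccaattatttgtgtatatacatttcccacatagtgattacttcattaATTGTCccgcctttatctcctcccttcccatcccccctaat
Axin2 peak 1, chr11:108920416-108920445: agccggctgcgCTTTGATaaggtcctggca
Axin2 peak 1, chr11:108920779-108920808: tcggctcgcgcCTTTGAAgtgcacagttaa
Gsk3b peak 4, chr16:38150750-38150779: cattcaaaaacATTTGCATcagctttctgt

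The CTTTGAT of Axin2 lies in the annotated 5′ UTR, 81 bp past the gene start, and the CTTTGAA in an intron at 444 bp. The octamer of Gsk3b is intronic, 61763 bp from the gene start. The CTTTGAT of Sp5 starts at base 147 of the 250 before the gene start, outside the deposited peaks.

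Library sizes recovered from the RPKM values (reads scaled to peak length and library size) ran from 31634480 to 39547452 reads. The share of reads in peaks was 6.63% to 7.12% in the uninduced and 4.05% to 5.15% in the IAA libraries, and the median tested peak changed by -0.55 on the log2 scale, the median tested gene by -0.53. The divisor of RPKM is the whole library, and no spike-in was used here, so the main counts are given both as deposited and relative to the median. Changes of single peaks and genes, and whether they passed, are as deposited unless called relative. After centring, Tcf7l1 peak 12, Fzd5 and Porcn were the only member peak and listed genes to pass. In bulk chromatin, fewer cells carrying the mark and less mark per cell cannot be told apart. Of the marker genes of naive ESCs, Pou5f1, Sox2, Nanog, Esrrb, Klf4 and Tfcp2l1 all had peaks, at 4.75 to 9.78 RPKM in uninduced cells, whereas 7 of the 11 listed markers of other lineages (Cdx2, Eomes, Krt8, Gata4, Sox17, T and Mixl1) had none. The other 4 had peaks at lower levels, Gata3 at 2.39, Pax6 at 1.74, Sox1 at 1.62 and Gata6 at 1.48 RPKM.

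H3K27ac was lower after IAA at all 8 Wnt genes with a peak, to 64.8% of its uninduced level at Tcf7l1 and to 73.9% at Axin2, the ends of their range. Each gene was given the mean RPKM of its peaks weighted by peak length, and log2(RPKM + 0.1) was tested with limma over 13025 protein-coding genes. All 8 were lower at a Benjamini-Hochberg adjusted p under 0.05 (0.000965 to 0.0128), and 0 were higher, where 86.8% of all tested genes were lower. Because peaks were called on the uninduced libraries alone, the lack of gains is partly set by the peak list. The IAA libraries lay wholly below the uninduced ones at 7 of the 8, against 82.9% of all genes. The median log2 change of the 8 was -0.53, beside -0.51 over all tested genes. For a single gene the exact two-sided permutation test of 3 libraries against 3 cannot give a p under 0.1, and it gave p = 0.1 for 7 genes and p = 0.2 for Axin2.

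**Figure D1:**
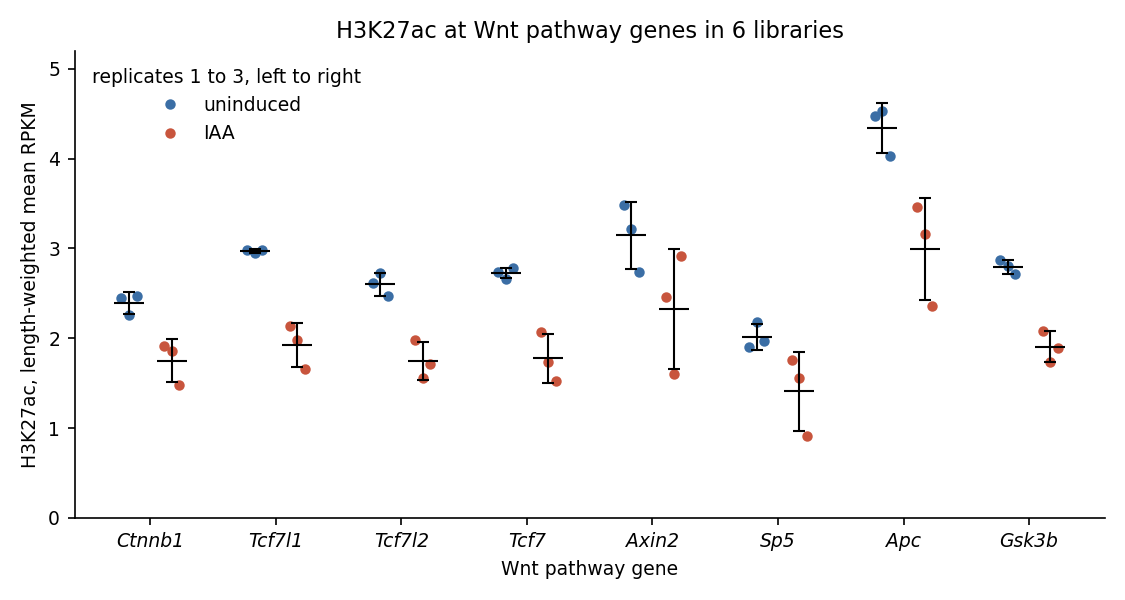
Length-weighted mean H3K27ac (RPKM) of the peaks of each Wnt gene, with a point for each of the 3 uninduced and 3 IAA libraries and bars for the mean and SD. The IAA points lie below the uninduced points at every gene but Axin2, where IAA replicate 3 (2.91 RPKM) is above uninduced replicate 3 (2.74 RPKM).

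Relative to the median gene of each library, none of the 8 passed the test. With libraries centred in this way, limma called 0 of them lower and 0 higher at an adjusted p under 0.05, and 0 had an unadjusted p under 0.05, the lowest being 0.353. Over all genes 1.08% were lower and 0.299% higher by this measure. The relative log2 changes lay between -0.08 at Tcf7l1 and 0.09 at Ctnnb1, and 95% confidence intervals leave room for differences of some size. That of Apc, the narrowest, ran from -0.17 to 0.16, and that of Axin2, the widest, from -0.38 to 0.53.

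Ctnnb1 encodes β-catenin, the effector of the pathway. Its mean was 2.45, 2.26 and 2.47 RPKM in uninduced replicates 1 to 3 and 1.91, 1.86 and 1.48 RPKM after IAA, so the groups did not overlap. The log2 change was -0.44 (SE 0.162, adjusted p = 0.0127 by limma), the smallest of the 8. Without IAA replicate 2 that of Axin2 was smaller (-0.22, beside -0.48 at Ctnnb1). The call for Ctnnb1 was lost without uninduced replicate 1 or uninduced replicate 3. In these fits 66.0% and 82.2% of all genes were lower, beside 86.8% with all 6 libraries. No peak covers the outermost annotated start of Ctnnb1 or its RefSeq promoter windows, which lie between that start and peak 2. Peak 2, in an intron, lies 740 bp from another annotated start, and peak 3, past the 3′ end, is within 1 kb of the start of Ulk4. The latter peak had a log2 change of -0.35 that did not pass (SE 0.178, adjusted p = 0.0859 by limma). Without it the change of the gene was -0.50. The most reduced was peak 1, 9800 bp from the nearest annotated start, at 2.04, 2.15 and 2.21 RPKM before and 1.33, 1.64 and 1.31 RPKM after IAA (log2 change -0.56, with no overlap).

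Of the TCF/LEF factors, Tcf7l1 had the largest fall of the 8 genes, close to that of Tcf7. The rank depended on single libraries: without IAA replicate 1, Tcf7 (-0.71) and Sp5 (-0.70) fell more than Tcf7l1 (-0.68). Tcf7l1 stood at 2.98, 2.94 and 2.99 RPKM in the uninduced and 2.14, 1.98 and 1.66 RPKM in the IAA libraries, a log2 change of -0.61 (SE 0.154, adjusted p = 0.000965 by limma) with no overlap. Tcf7l2 stood at 2.61, 2.72 and 2.47 RPKM before and 1.98, 1.56 and 1.71 RPKM after IAA. Its log2 change was -0.55 (SE 0.159), again with no overlap. Of its 4 peaks, peak 1 over an exon near the start and peak 2 in an intron were the higher ones, at 3.51 and 2.98 RPKM in uninduced cells. These fell by 0.55 each on the log2 scale. The ends of its range were peak 4, with a log2 change of -0.58 and overlapping libraries, and peak 3, whose change of -0.51 did not pass (adjusted p = 0.0572 by limma). The 1 peak of Tcf7, which encodes TCF1, overlaps an exon 21400 bp from the gene start. It went from 2.74, 2.66 and 2.78 RPKM to 2.07, 1.73 and 1.53 RPKM (log2 change -0.60, SE 0.158 by limma over genes).

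Lef1 had no peak within 10 kb, or within 25 kb. The nearest, 47.2 kb past its 3′ end, is at the start of Hadh, so no H3K27ac value is given for Lef1. Peaks were called on the uninduced libraries, and a gain at Lef1 confined to the IAA libraries would not be in the peak list.

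Among genes of the destruction complex, Apc, its scaffold, carried the highest level of the 8. The values were 4.47, 4.53 and 4.02 RPKM in uninduced cells and 3.46, 3.16 and 2.36 RPKM after IAA (log2 change -0.54, SE 0.151). The groups did not overlap. The highest of its peaks, peak 3 at 5.92 RPKM, lies past the 3′ end within 1 kb of the start of Srp19, and without it the change of Apc was -0.58. Peak 1, over the outermost annotated start, went from 3.84, 4.16 and 3.56 RPKM to 3.08, 2.64 and 2.09 RPKM (log2 change -0.56). Peak 2, over another start, had the largest fall of the gene (log2 change -0.73, adjusted p = 0.00631 by limma). Gsk3b, the kinase that Chiron inhibits, stood at 2.87, 2.80 and 2.71 RPKM before and 2.08, 1.74 and 1.89 RPKM after IAA. Its log2 change was -0.53 (SE 0.154), with no overlap. Both kinase and scaffold thus ended within 0.01 of the shift of the median gene. So did Sp5, outside the complex (relative change -0.001), while Axin2, another scaffold of it, was at 0.08.

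Axin2, both a scaffold of that complex and a feedback target, was the gene whose libraries overlapped. It stood at 3.48, 3.22 and 2.74 RPKM in uninduced and 2.46, 1.60 and 2.91 RPKM in IAA libraries, a log2 change of -0.45 (SE 0.166, adjusted p = 0.0128 by limma). Without IAA replicate 2 the change was -0.22 and the call was lost, as it was without uninduced replicate 1. In these fits 75.8% and 66.0% of all genes were lower, beside 86.8% with all 6 libraries. The scatter came from peak 1 at the start, which holds both TCF/LEF cores shown above: its IAA values were 2.94, 1.72 and 4.08 RPKM beside uninduced values of 4.22, 3.92 and 3.45 RPKM, and it did not pass (log2 change -0.47, adjusted p = 0.0629 by limma). Peak 2, which follows it, went from 2.63, 2.42 and 1.93 RPKM to 1.92, 1.46 and 1.58 RPKM and passed (log2 change -0.46, adjusted p = 0.0389 by limma).

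Sp5, a zinc-finger factor and direct target of β-catenin, had the lowest level of the 8. It stood at 1.90, 2.18 and 1.97 RPKM before and 1.75, 1.56 and 0.915 RPKM after IAA, a log2 change of -0.53 (SE 0.190, adjusted p = 0.0106 by limma). The groups did not overlap, but the call was lost without uninduced replicate 2 or IAA replicate 3, and without the latter the change was -0.27. In these fits 68.1% and 75.5% of all genes were lower, beside 86.8% with all 6 libraries. The 3 peaks of Sp5 line up along a short gene. Peak 1, nearest to the start, went from 2.28, 2.76 and 1.98 RPKM to 1.44, 1.44 and 1.02 RPKM and passed (log2 change -0.80, adjusted p = 0.00456 by limma). Peaks 2 and 3 had changes of -0.46 and -0.29 and did not pass. The log2 difference between peaks 1 and 3 within a library was 0.68, 0.83 and -0.23 before and -0.37, -0.29 and 0.39 after IAA, with overlap, a pair chosen after the values were seen and given as a description. These 2 peaks held 11 to 38 reads per library.

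The order of the uninduced levels was Apc (4.34 RPKM), Axin2 (3.15), Tcf7l1 (2.97), Gsk3b (2.79), Tcf7 (2.73), Tcf7l2 (2.60), Ctnnb1 (2.39) and Sp5 (2.01). RPKM is per length, but the genes differ in the number and place of their peaks, so this order describes mean levels over called peaks only. Library ranges did not overlap between Apc and Axin2, Tcf7l1 and Gsk3b, or Ctnnb1 and Sp5. They overlapped for the other neighbours in this order. Without the peaks at starts of Srp19, Tgoln1 and Ulk4 the order was the same, but Apc (3.48 RPKM) then overlapped Axin2, Tcf7l1 (2.83) overlapped Gsk3b and Ctnnb1 (2.11) overlapped Sp5, while Tcf7l2 and Ctnnb1 no longer overlapped. Genes outside the pathway with like profiles were sought for the members with the largest and the smallest fall, by the root mean square difference over the 6 libraries of log2(RPKM + 0.1), each gene taken against its own uninduced mean. Of 35 genes with as many peaks as Tcf7l1 or more and a level within 1.5-fold of it, Rnf220, Mbnl2 and Rbpms were nearest, at 0.0329, 0.0338 and 0.0373. Of 2842 such genes for Ctnnb1, Zfp626, St8sia5 and Mcts2 were, at 0.0204, 0.0207 and 0.0269.

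Peak by peak, 29 of the 40 (72.5%) were lower after IAA by limma over all 26457 tested peaks at an adjusted p under 0.05, against 68.2% of all peaks. None was higher, and all 40 log2 changes were negative, from -1.06 to -0.15 with a median of -0.53 (-0.55 over all tested peaks). Peaks were called on the uninduced libraries alone, which favours regions high in them, so the lack of gains is partly set by the peak list. At 32 of the 40 every IAA value lay below every uninduced value, beside 71.2% of all peaks. The count moved with single libraries. Without uninduced replicate 1 it was 15 of 40, where 39.2% of all peaks were lower, and without uninduced replicate 2 it was 16, where 46.5% were. The median change of the 40 was -0.53 and -0.54 in these fits, so the calls moved more than the changes. Uninduced levels ran from 1.43 RPKM at peak 10 of Gsk3b to 5.98 RPKM at its peak 7. Of the 17 member peaks with an annotated transcript start within 1 kb, 14 were lower (median -0.53), and of the 23 others 15 were (median -0.54). Over all tested peaks these shares were 70.0% (median -0.53) and 66.4% (median -0.58), beside 82.4% and 65.2% of the member peaks. The change of a peak had a Pearson r of 0.18 with its GC content and of -0.12 with its log2 uninduced level over the 40 peaks, which share libraries. These are given as a description.

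**Figure D2:**
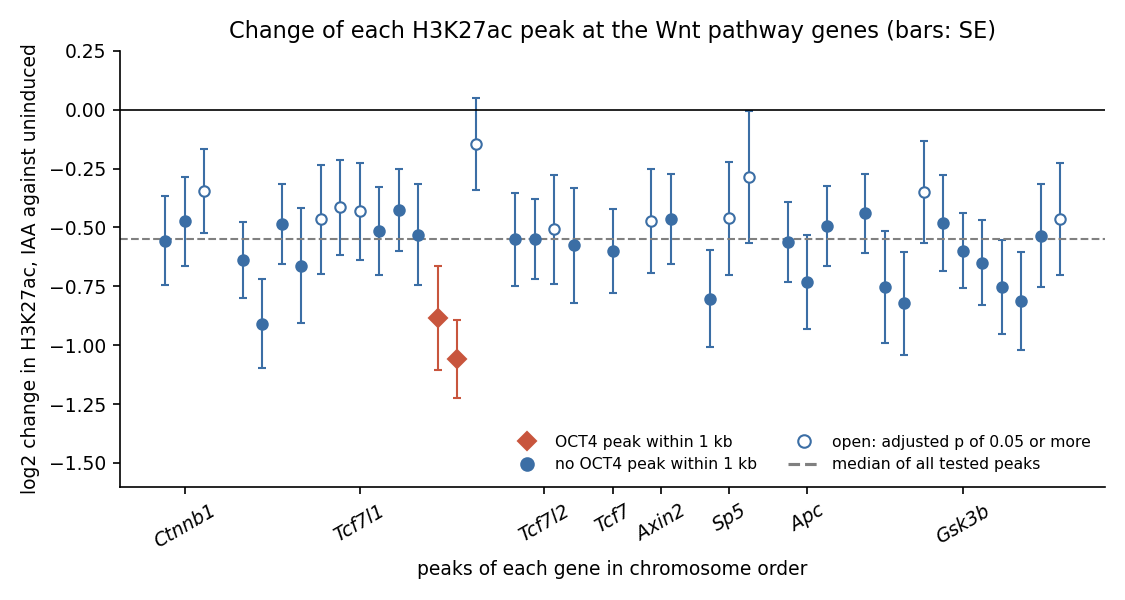
Log2 change in H3K27ac (IAA against uninduced, bars SE by limma) of the 40 peaks grouped by gene, with diamonds for the 2 marked peaks, open symbols for an adjusted p of 0.05 or more and a dashed line at the median of all tested peaks (-0.55). Peaks 12 and 13 of Tcf7l1, next to each other, have the largest and the smallest fall of the 40.

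After centring on the median peak, 1 of the 40 was lower and 0 were higher by limma, where 1.97% of all peaks were lower. At an unadjusted p under 0.05 there were likewise 1 lower and 0 higher, beside 8.83% lower and 5.41% higher of all peaks. It is Tcf7l1 peak 12 (chr6:72787679-72788901), 1 of the 2 marked peaks shown above. It stood at 4.80, 4.78 and 4.12 RPKM in uninduced replicates 1 to 3 and at 2.35, 2.31 and 1.79 RPKM after IAA. The groups were far apart, on 185 to 232 reads before and 76 to 102 reads after. The log2 change was -1.06 (SE 0.166, adjusted p = 0.000157 by limma), and relative to the median peak it was -0.50 (adjusted p = 0.0324 by limma). Over 13 alternatives the latter p ran from 0.0131 to 0.193 and passed in 7. The relative call was lost without any 1 of uninduced replicates 1 to 3 or IAA replicate 1 (0.0797 to 0.193), with a replicate block (0.0774) and with plain eBayes (0.0905), while the relative change stayed between -0.55 and -0.44.

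Peak 13 (chr6:72789247-72789634), 346 bp upstream of peak 12 along the gene and over the outermost annotated start of Tcf7l1, did not pass. It has no mark of its own and stood at 1.82, 3.18 and 2.46 RPKM before and 2.12, 2.21 and 2.23 RPKM after IAA. These groups overlapped (log2 change -0.15, SE 0.194, adjusted p = 0.485 by limma), on 28 to 39 reads. Within each library, the log2 level of peak 12 exceeded that of peak 13 by 1.35, 0.57 and 0.72 in uninduced cells and by 0.14, 0.06 and -0.30 after IAA. The change of this difference, from 0.88 ± 0.411 (SD, n = 3) to -0.03 ± 0.236 (SD, n = 3), was -0.91, with no overlap between the groups. The pair was chosen after the values were seen, as the largest and the smallest fall of the 40, so this is a description with no test. Without uninduced replicate 1, whose peak 13 was low, the change was -0.68.

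**Figure D3:**
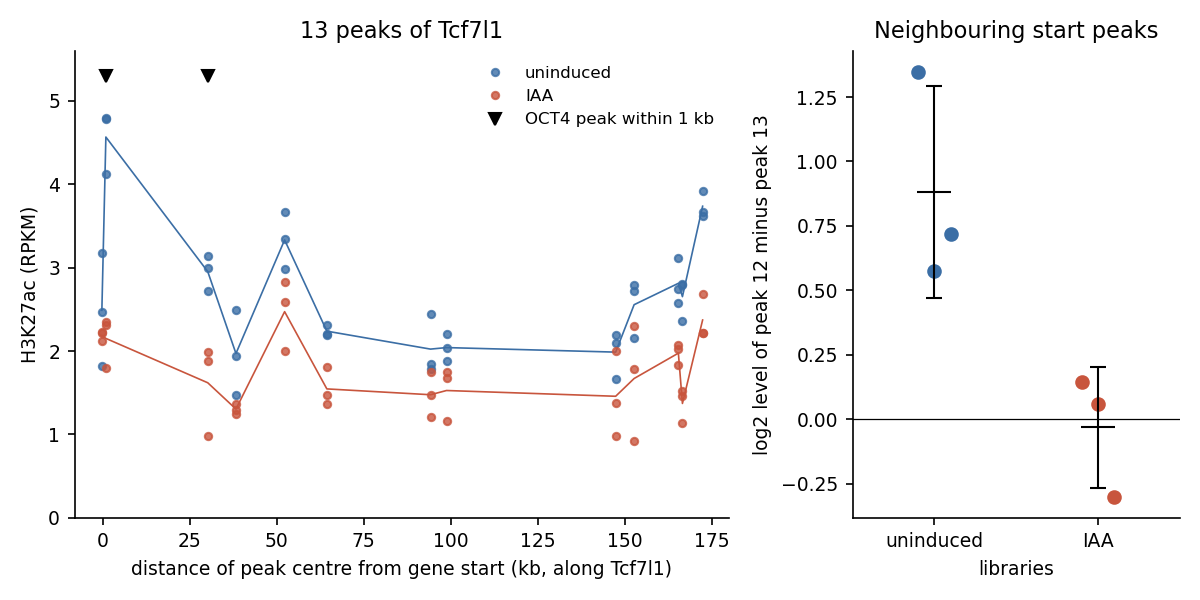
Left, H3K27ac (RPKM) of the 13 Tcf7l1 peaks in each library by distance of the peak centre from the gene start, with lines through the group means and triangles over the 2 marked peaks. Right, log2 level of peak 12 minus peak 13 in each library with mean and SD, where the uninduced libraries lie between 0.57 and 1.35 and the IAA libraries between -0.30 and 0.14.

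The other marked peak, peak 11, went from 2.72, 3.13 and 3.00 RPKM to 1.99, 1.88 and 0.981 RPKM, with no overlap (log2 change -0.89, SE 0.220, adjusted p = 0.00384 by limma). It held 12 to 41 reads per library. Relative to the median peak its change was -0.33 and did not pass (adjusted p = 0.453 by limma). The unmarked peak 2, past the 3′ end of Tcf7l1, changed by as much, on 14 to 40 reads per library. It went from 2.80, 2.36 and 2.79 RPKM to 1.14, 1.46 and 1.52 RPKM (log2 change -0.91, SE 0.189, adjusted p = 0.00131 by limma). The remaining 9 unmarked peaks of the gene had changes from -0.66 to -0.41, of which 6 passed, beside 64.6% of all unmarked tested peaks. The median over the 2 marked peaks exceeded that of the 38 other member peaks by 0.67 ± 0.0267 (log2, SD, n = 3) in uninduced and by 0.20 ± 0.177 (SD, n = 3) in IAA libraries, a change of -0.47, given with no test. Both marked peaks belong to 1 gene. Over all tested peaks the median change was -0.71 with and -0.52 without the mark.

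Along Gsk3b, 9 of 11 peaks were lower and passed, beside 68.2% of all tested peaks. The promoter peak 1 held 223 to 457 reads per library and went from 5.11, 4.77 and 4.29 RPKM to 3.76, 2.73 and 3.98 RPKM, with no overlap (log2 change -0.44, SE 0.168, adjusted p = 0.0287 by limma). The intronic peaks 3 and 9 had the largest falls, of 0.82 and 0.81 on the log2 scale, at the low levels of 1.64 and 1.78 RPKM. The intronic peak 7 was the highest of all 40, at 6.49, 5.98 and 5.45 RPKM before and 5.08, 3.61 and 2.90 RPKM after IAA (log2 change -0.65, SE 0.180, adjusted p = 0.00685 by limma). Peak 4, which holds the octamer, went from 1.46, 1.54 and 1.56 RPKM to 1.20, 1.41 and 0.946 RPKM. Its groups did not overlap, its change of -0.35 did not pass (SE 0.216, adjusted p = 0.142 by limma), and it has no OCT4 mark. The log2 difference between peaks 3 and 1 within a library went from -1.48 ± 0.285 (SD, n = 3) to -1.86 ± 0.359 (SD, n = 3), with overlap, a pair chosen after the values were seen and given as a description.

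The wider pathway was read from a list of 85 further genes in 6 roles, also chosen with earlier results of these data known. Of these, 56 had a peak in their window and 54 were tested. By limma, 45 were lower and 0 higher, where 86.8% of all genes were lower, with a median log2 change of -0.54. Here too, calling peaks on the uninduced libraries alone limits what gains could be seen. Of 6 tested genes for ligands and their release 3 were lower (median -0.44), of 12 receptors 10 (-0.60), of 13 cytoplasmic transducers 12 (-0.52), of 11 nuclear cofactors 11 (-0.58), of 8 antagonists and feedback genes 5 (-0.47) and of 4 adhesion partners of β-catenin 4 (-0.55). The cofactor role is that of the list, which counts the homeobox transcription factor Cdx1 (log2 change -0.48) in it. Most Wnt ligands carried no peak, and Wnt6 and Wnt10a share their only one. Among transducers, Csnk1a1, the priming kinase for β-catenin, had 5.25, 5.45 and 4.78 RPKM before and 3.77, 3.23 and 3.43 RPKM after IAA. It fell by 0.56 on the log2 scale, with no overlap. Sfrp2, a secreted antagonist, had the smallest change of the list and did not pass (-0.07), at 1.31, 1.77 and 1.71 RPKM before and 1.60, 1.47 and 1.45 RPKM after IAA.

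In each role the gene with the highest level, the largest fall and the smallest change was looked up. Of the ligands, Wnt10b was highest, at 3.05 RPKM, and its change of -0.28 did not pass, nor did that of -0.13 at Wnt6. Among receptors the smallest change, -0.29 at Fzd8, did not pass either. Amer1, which binds APC, fell most among transducers (-0.70), and Csnk1d, a casein kinase, had the smallest change (-0.40), which did not pass and whose libraries overlapped. The Groucho-type corepressors Tle4 (3.80 RPKM, log2 change -0.62) and Tle1 (-0.88) were the highest and the most reduced cofactors, and Bcl9, a coactivator of β-catenin, fell least among cofactors (-0.44). Of the antagonists, Sfrp4 fell most (-0.75), while Rnf43, a ubiquitin ligase that removes Frizzled receptors, was highest at 2.63 RPKM and did not pass (-0.27). Of the adhesion partners, Ctnna1, which encodes α-catenin, had the smallest fall (-0.33).

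Relative to the median gene, 2 of the 54 were lower and 0 higher by limma, beside 1.08% and 0.299% of all genes. At an unadjusted p under 0.05, 4 were lower and 4 higher, beside 6.55% and 5.41% of all genes, and 2 of the 4 higher, Wnt6 and Wnt10a, are read from 1 shared peak. The gene with the largest fall was Fzd5, a Frizzled receptor for Wnt ligands with 2 marked peaks among its 3. It went from 5.55, 5.02 and 4.76 RPKM to 2.14, 1.87 and 1.63 RPKM, far outside the spread (log2 change -1.40, SE 0.148, adjusted p = 3.26e-10 by limma). Its relative change of -0.87 passed here (adjusted p = 0.00102 by limma) and in 18 of 18 alternatives. Porcn, the acyltransferase that Wnt secretion needs, had 1 marked peak of 2 and went from 2.31, 2.30 and 2.40 RPKM to 1.18, 1.07 and 0.850 RPKM. Its relative change of -0.58 passed narrowly (adjusted p = 0.0489 by limma) and in 8 of 18 alternatives. The call was lost in every fit that left out 1 library (adjusted p 0.0646 to 0.257 by limma). The relative change also moved with the window. It was -0.90 over the gene body alone and -0.45 with 25 kb on either side, where it did not pass (adjusted p = 0.0924 by limma).

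Of the 12 listed genes with a marked peak, 12 were lower, with a median log2 change of -0.65, and of the 42 tested ones without, 33 were, with a median of -0.50. Over all genes these shares were 94.0% (median -0.60) and 85.1% (-0.50). Of the 12, Cdh1, the cadherin that binds β-catenin at the membrane, had 6 marked peaks of 8 and went from 4.99, 4.48 and 4.50 RPKM to 3.04, 2.77 and 2.41 RPKM. Its relative change of -0.22 did not pass (adjusted p = 0.184 by limma).

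**Figure D4:**
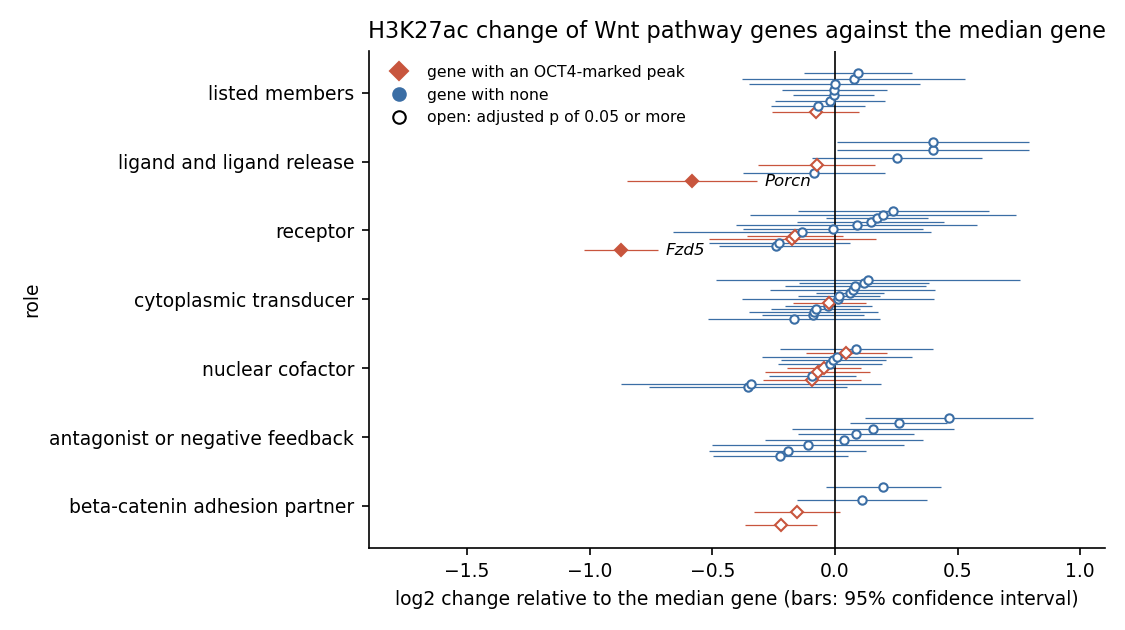
Log2 change in H3K27ac relative to the median gene, with 95% confidence intervals, for the 8 members and the 54 further genes by role, with diamonds for genes that have a marked peak and filled symbols for an adjusted p under 0.05. The 8 members lie between -0.08 and 0.09, while Fzd5 (-0.87) and Porcn (-0.58) lie to the left.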

How the data were processed

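H3K27ac ChIP-seq libraries of O4AID ESCs (3 uninduced, 3 with IAA, groups from the labels) were used. Per the paper's methods and the submitters' processing notes, the authors aligned reads to GRCm38/mm10 with Bowtie 2 (version 2.3.4.3), filtered out duplicates (SAMtools), ran MACS2 on the merged uninduced immunoprecipitations to call peaks, and deposited RPKM values made with DiffBind (versions of MACS2 and DiffBind are not given in the sources used here). Each deposited pooled column is the arithmetic mean of its 3 libraries, and 0 columns of sample values were left unused. The labels name the antibody ab4792, the paper's methods ab4729. The mark for OCT4 is a column of the authors' table.

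Peak length was end minus start, under which all values were whole reads within 0.01. Peak starts were raised by 1 to count from 1. The median tested peak held 36 to 73 reads per library. Peaks with a pooled RPKM of at least 0.5 in either condition, and genes whose mean reached 0.5, were tested after a log2(RPKM + 0.1) transform, on which changes of low values come out too small, with limma 3.58.1 in R 4.3.3 (lmFit, eBayes with trend and robust), adjusted over all peaks or genes. Count models were not applied to RPKM. The test was checked on simulated data. Single values were compared by the exact permutation test over the 20 labellings. By rule, the text names all members with their highest, start, most and least changed and marked peaks, in each role of the wider list the highest, most and least changed gene, and the 3 genes of most like profile for 2 members. Other single peaks, and pairs of peaks, were chosen after their values were seen. The members and lists were chosen with earlier results of these data known. Alternatives covered pseudocount, filter, window, scaling, weighting, limma settings, replicate block and leaving out each library. Sequences were read from GRCm38 or from RefSeq promoters on GRCm38.p6.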

Additional observations from a re-analysis of the deposited data

How the results depend on the processing

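Counts of lower members followed the scaling. The 29 lower peaks of 40 became 1 after centring on the median peak and 1 with quantile normalization. The 8 lower genes became 0 with quantile normalization of genes, since both remove a shift common to all features. Of all features, 1.97%, 1.69% and 1.17% were lower in these fits. At an adjusted p under 0.01 there were 12 peaks and 5 genes, and the shares of all peaks and genes there were not computed. Leaving out 1 library gave 15 to 34 lower peaks, where 39.2% to 74.1% of all peaks were lower. The lowest counts were 15 without uninduced replicate 1 (39.2% of all peaks) and 16 without uninduced replicate 2 (46.5%). For genes it gave 6 to 8 lower members, where 66.0% to 91.4% of all genes were lower. Axin2, Ctnnb1 and Sp5 each lost the call in 2 of these fits. In the fits that lost a call, 66.0% to 82.2% of all genes were lower, beside 86.8% with all 6 libraries. The highest adjusted p of a member by limma ran from 0.05005 to 0.2585 in the same fits. The other 9 alternatives for peaks and 11 for genes stayed within 1.5-fold of the count. The count of 0 genes changed relative to the median gene was 0 in all 19 alternatives. Same-numbered libraries did not deviate together (correlations -0.01, -0.09 and -0.06), so the numbers were not taken to pair them. With a replicate block there were 32 lower peaks, beside 71.4% of all peaks, and 8 lower genes, beside 90.2% of all genes. There were 0 relative changes of member genes, and the block ended 2 calls, the relative ones of Tcf7l1 peak 12 and Porcn. The difference between marked and other member peaks, -0.47, stayed between -0.55 and -0.37 in 11 alternatives, 2 of them with other windows. Of 115 recomputed changes of single genes, 5 moved by more than the spread between libraries and 0 turned. Of these, 4 were at a pseudocount of 1 and 1 was Tcf7 with a 25 kb window. The alternatives for Tcf7l1 peaks 12 and 13, Fzd5, Porcn, the wider list, the order of levels and peaks near other genes' starts were chosen after seeing the data. Depth limits single peaks: those under 40 reads per library, such as the 3 peaks of Sp5, carry a large counting error. Peaks 2 and 11 of Tcf7l1 held no more than 41 reads in any library.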
